A study of Solanum tuberosum with 12 samples.

Results

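The enzymes described here carry phenylalanine through the phenylpropanoid pathway into lignin precursors, hydroxycinnamoyl amides, flavonols and anthocyanins. They were picked from the deposited lists of heat-regulated potato transcripts by product name, using the words phenylalanine ammonia, cinnam, coumar, caffe, chalcone, flavon, flavanone, anthocyan, leucoanthocyan, hydroxycinnamoyl and dihydroflavonol, whatever their case. These words found 90 transcripts, each from a gene of its own, among the 6438 transcripts listed at either age. Of the 1447 transcripts listed at 3 weeks 24 were members, of the 5571 listed at 8 weeks 79 were members, and of the 580 listed at both ages 13 were members.

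Phenylalanine ammonia-lyase removes the amino group of phenylalanine, which gives cinnamic acid. Once this is hydroxylated to 4-coumaric acid, 4-coumarate-CoA ligase activates it with coenzyme A, which opens the way to every later branch. One branch reduces the activated acids to monolignols, the units of lignin. Another joins them to amines such as tyramine, which in the nightshade family gives amides that are laid down in cell walls after wounding or infection. The flavonoid branch starts with chalcone synthase, and passes through flavanone 3-hydroxylase, dihydroflavonol 4-reductase and leucoanthocyanidin dioxygenase to coloured anthocyanidins, which transferases then stabilise with sugars and acyl groups. Desiree, the cultivar used, is known for its red tuber skin.

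Leaves of Solanum tuberosum cv. Desiree were compared between normal temperature (NT, 22 °C in light and 16 °C in darkness) and high temperature (HT, 35 °C in light and 29 °C in darkness), after 3 or 8 weeks in soil with 12 h of light and 12 h of darkness. All plants came from plantlets multiplied in sterile culture from buds, and RNA was taken from the upper 5 leaves. The labels name no transgene or other agent in any group. Each of the 4 groups had 3 libraries, 12 in all, and the labels do not say whether these came from separate plants. The p-values therefore measure the spread between these libraries, which may be technical. Libraries held between 52514661 and 66602938 counts, solved from the deposited values.

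The lists hold only transcripts that the authors had called for HT against NT in these same libraries, on a log2 fold change of 1.5 or more in either direction with p-values below 0.01. A call on a member is therefore no independent evidence, and members with smaller changes were not analysed here. Levels are given as CPM, counts in every 1000000 of a library's total after scaling between HT and NT as in the authors' fold changes. A transcript was called when edgeR's quasi-likelihood test gave an adjusted p under 0.05 over all listed transcripts tested at that age. Product names are those of the files, and close relatives with one name may share reads, so the split between them is uncertain. In these bulk leaves, fewer cells of a type and less RNA per cell cannot be told apart.

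At 8 weeks phenylalanine ammonia-lyase 1, 4-coumarate-CoA ligase 2 and 6 of 7 tyramine transferases were lower at HT, while all 13 tested anthocyanin acyltransferases and all 8 flavonol 4'-sulfotransferases were higher. The flavonoid core, grouped by product name, was divided, with 11 higher and 9 lower of 21 tested. Besides the route from chalcone synthases to leucoanthocyanidin dioxygenases, it held 6 flavonol synthase/flavanone 3-hydroxylases (3 higher and 3 lower). It also held chalcone reductase (lower) and 2-hydroxyisoflavanone dehydratase (not called). Chalcone synthase 2 and dihydroflavonol 4-reductase were among its higher members, and all 3 flavonoid 3-hydroxylases among its lower ones. Of the 79 listed members 67 passed the filter on low counts, and edgeR called 66 of them, 44 higher and 22 lower. Over all 5176 listed transcripts tested, 97.3% were called, 59.3% higher and 38% lower, so the number of calls says nothing about the members. The share of calls that were higher was 66.7% for the members and 60.9% for all listed transcripts, and the median log2 change was 2.16 against 1.79. The HT and NT libraries did not overlap in 75 of the 79 members (94.9%), against 93.4% of all listed transcripts.

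At 3 weeks all 24 listed members were tested and called by edgeR, 17 higher and 7 lower at HT, beside 97.5% of the 1280 listed transcripts tested (60.3% higher and 37.2% lower). The median log2 change was 1.93 for the members and 1.66 for all. The libraries did not overlap in 23 of the 24 members (95.8%), against 89.8% of all listed transcripts.

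Of the scalings tried, DESeq2 size factors moved the split of higher and lower calls most. On plain library totals 70.8% of member calls were higher at 3 weeks (65.6% of all calls) and 66.7% at 8 weeks (61.4%). With TMM of the listed transcripts these shares were 66.7% (54.5%) and 67.6% (61%). DESeq2 size factors assume that most transcripts are unchanged, but here came only from transcripts listed for a change. A call lost under them does not show that a change is absent. These factors lowered the median log2 change of all listed transcripts by 1.21 at 3 weeks and by 1.27 at 8 weeks. Members then had 3 higher and 7 lower calls at 3 weeks, where all listed transcripts had 155 and 507 (52% called, 12.2% higher and 39.8% lower). At 8 weeks they had 31 higher and 24 lower calls, where all listed transcripts had 1179 and 2102 (63.5% called, 22.8% higher and 40.7% lower). Of the calls made on the authors' scaling, 10 of 24 were kept at 3 weeks and 52 of 66 at 8 weeks. Adjusting over the authors' number of tests kept 4 of 24 and 52 of 66. No called member changed sign under DESeq2 size factors, TMM of the listed transcripts or plain library totals.

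**Figure D1:**
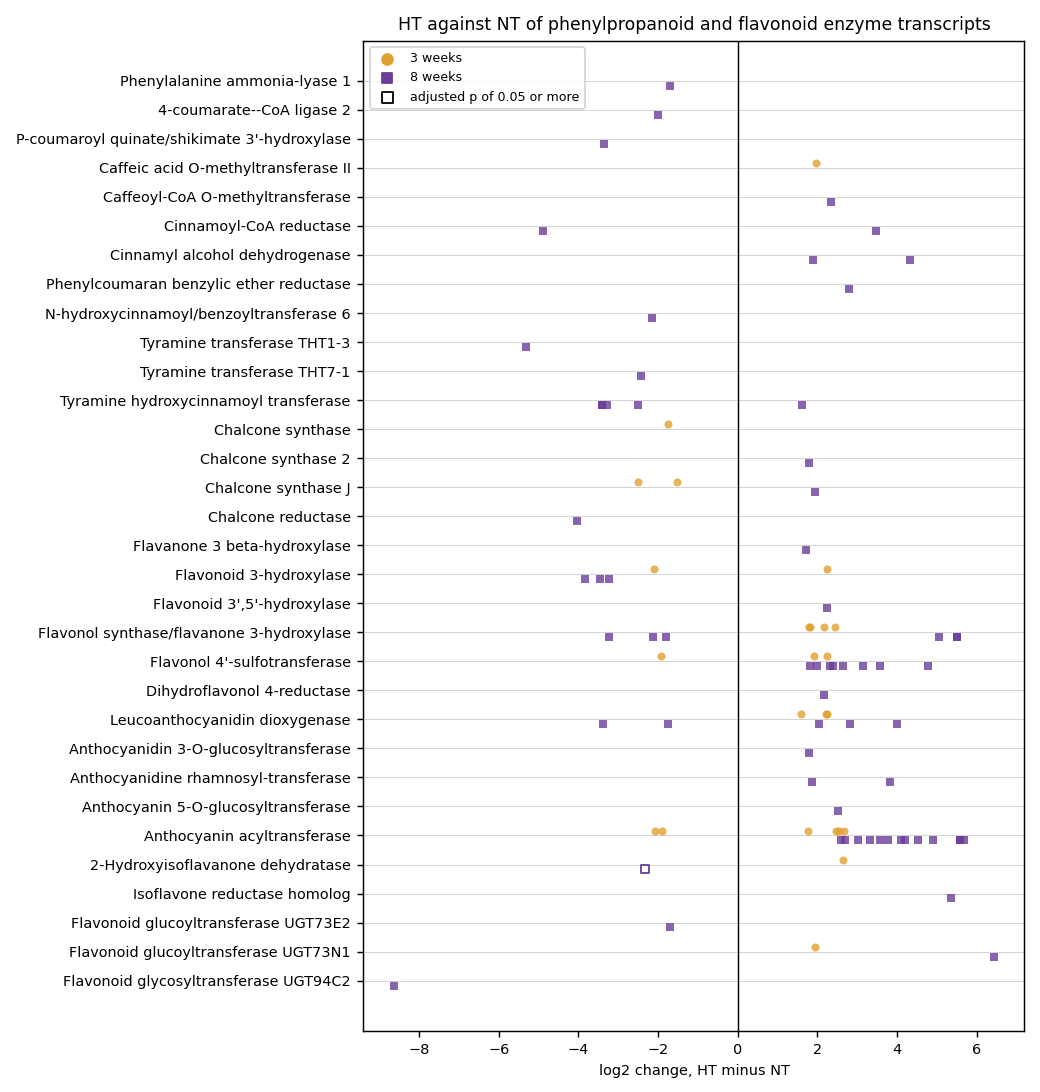
Log2 change of HT over NT (horizontal axis) for each tested member, by product name in pathway order, with circles for 3 weeks, squares for 8 weeks and an open square for an adjusted p of 0.05 or more. At 8 weeks the 13 tested anthocyanin acyltransferases lie between 2.58 and 5.68, and phenylalanine ammonia-lyase 1 and 4-coumarate-CoA ligase 2 lie at -1.71 and -2.01.

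Phenylalanine ammonia-lyase 1 (PGSC0003DMT400080765), the entry enzyme, stood at 69.5, 97.3 and 113 CPM in the 8-week NT libraries and at 9.06, 19.9 and 56.9 CPM in the HT libraries. All 3 HT libraries lay below all NT libraries, with HT replicate 3 nearest to them. The log2 change was -1.71 ± 0.64 (SE; edgeR adjusted p = 0.03). This call was lost without HT replicate 2 (adjusted p = 0.085), NT replicate 2 (0.071) or NT replicate 3 (0.082), while without HT replicate 3 the log2 change was -2.69. 4-coumarate-CoA ligase 2 (PGSC0003DMT400036886) had 47.5, 58.1 and 53.2 CPM at NT and 13, 7.14 and 19.2 CPM at HT. The groups lay well apart, and the log2 change was -2.01 ± 0.45 (SE; edgeR adjusted p = 0.0044). Neither product name occurs in the 3-week list.

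The tyramine transferases, which join hydroxycinnamoyl-CoA to tyramine, held some of the highest levels of the whole set at NT. Of the 7 transcripts named for tyramine transfer, all tested at 8 weeks, 6 were lower at HT and 1 was higher. Adjusted over the authors' number of tests, 3 of the 6 stayed called lower, PGSC0003DMT400038291, PGSC0003DMT400038283 and THT1-3, and the higher one was not called. PGSC0003DMT400038291 had 120, 171 and 196 CPM at NT and 8.4, 8.38 and 29.2 CPM at HT, a 10.6-fold lower mean (log2 change -3.40 ± 0.61 SE; edgeR adjusted p = 0.0024). PGSC0003DMT400038283 had 120, 163 and 163 CPM at NT and 5.1, 9.33 and 31.6 CPM at HT (log2 change -3.27 ± 0.69 SE; edgeR adjusted p = 0.0038). In both, HT replicate 3 was several times above the other HT libraries and still far below every NT library.

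One more abundant copy, PGSC0003DMT400038293, had 68.1, 81.6 and 120 CPM at NT and 1.45, 4.05 and 20 CPM at HT, with a log2 change of -3.40 ± 0.89 (SE; edgeR adjusted p = 0.0079). The low copy PGSC0003DMT400038292 fell from a mean of 3.59 to 0.63 CPM, the transcript named THT7-1 (PGSC0003DMT400038286) from 9.08 to 1.68 CPM and THT1-3 (PGSC0003DMT400088362) from 1.69 to 0.0393 CPM. Without HT replicate 3, the log2 changes of the 4 copies that fell under the plain name were -4.27, -4.36, -5.03 and -3.55, in the order given here. The seventh, PGSC0003DMT400038285, went the other way, with 1.58, 3.23 and 4.27 CPM at NT and 9.67, 9.69 and 8.47 CPM at HT (log2 change 1.61 ± 0.48 SE; edgeR adjusted p = 0.013), a call that was also lost with DESeq2 size factors. These transcripts share a name and have close identifiers, and reads of similar copies may have been divided among them.

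The other hydroxycinnamoyl transferase that was tested was also lower. N-hydroxycinnamoyl/benzoyltransferase 6 (PGSC0003DMT400020526) had 36, 40 and 41.6 CPM at NT and 6.67, 7.56 and 12.3 CPM at HT (log2 change -2.15 ± 0.40 SE; edgeR adjusted p = 0.0027). The files listed 3 transcripts under the name of p-coumaroyl quinate/shikimate 3'-hydroxylase, a cytochrome P450 that adds the hydroxyl group leading to caffeic compounds. The one tested, PGSC0003DMT400082337, had 0.808, 3.92 and 0.865 CPM at NT and 0.0842, 0.247 and 0.211 CPM at HT. Its groups did not overlap, but NT replicate 2 stood above the other NT libraries, and without that library the log2 change of -3.35 became -2.19. PGSC0003DMT400038202 had no count at HT and 0.414, 1.2 and 0 CPM at NT. It was not tested, and its groups overlapped, since NT replicate 3 had no count either. Over the groups as a whole it was at least 35.9-fold lower when 3 counts over the group are taken as the floor. PGSC0003DMT400038205 also had a lower HT mean and was not tested.

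Of the 6 members grouped by product name with lignin, 5 were higher at 8 weeks. The 3 transcripts of p-coumaroyl quinate/shikimate 3'-hydroxylase given above, on the way to caffeic compounds, were not counted in this group. They had lower HT means. Caffeoyl-CoA O-methyltransferase (PGSC0003DMT400016512), which methylates caffeoyl-CoA on the way to the units of lignin, had 6.23, 9.56 and 4.29 CPM at NT and 43.7, 29.8 and 28.8 CPM at HT. The lowest HT library was well above the highest NT library, and the log2 change was 2.35 ± 0.45 (SE; edgeR adjusted p = 0.0029). Cinnamyl alcohol dehydrogenase, the last reduction before lignin units leave the cell, was listed with 2 transcripts. PGSC0003DMT400047475 had 23.7, 20.4 and 24.4 CPM at NT and 103, 79.7 and 72.4 CPM at HT (log2 change 1.90 ± 0.36 SE; edgeR adjusted p = 0.0028). PGSC0003DMT400033637 had 0.0985, 0.146 and 0.829 CPM at NT and 11.2, 2.67 and 7.69 CPM at HT (log2 change 4.32). Both sets of libraries were apart, though the NT libraries of the second were uneven, and without NT replicate 3 its log2 change was 5.84.

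Phenylcoumaran benzylic ether reductase (PGSC0003DMT400009471), which acts on lignin-like dimers, had 3, 1.92 and 3.48 CPM at NT and 33.7, 8.34 and 16.7 CPM at HT. Its log2 change was 2.80, and 2.16 without HT replicate 1. The transcripts named cinnamoyl-CoA reductase, the enzyme at the entry to monolignols, moved apart. PGSC0003DMT400045987 had 31.1, 38.5 and 2.41 CPM at NT and 0.657, 0.841 and 0.908 CPM at HT (log2 change -4.90), with NT replicate 3 far below the other NT libraries. PGSC0003DMT400056128 rose from 0.0757 to 0.863 CPM (log2 change 3.46).

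Of the product names on the way to anthocyanins, 6 were listed at 8 weeks with a single transcript that was called higher, and these are given first. Names listed with several transcripts, such as leucoanthocyanidin dioxygenase, follow with all of them. Chalcone synthase 2 (PGSC0003DMT400049165), the first enzyme of flavonoid synthesis, had 49.6, 21.7 and 24.1 CPM at NT and 84.2, 120 and 123 CPM at HT. The groups did not overlap, and the log2 change was 1.78 ± 0.45 (SE; edgeR adjusted p = 0.0068). Flavanone 3 beta-hydroxylase (PGSC0003DMT400009175), which makes dihydroflavonols, had 11.9, 8.69 and 10.6 CPM at NT and 26.4, 40.3 and 35.6 CPM at HT (log2 change 1.71 ± 0.38 SE; edgeR adjusted p = 0.0044). In both transcripts HT replicate 1 was the lowest HT library.

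Flavonoid 3',5'-hydroxylase (PGSC0003DMT400001124), which sets the hydroxyl pattern of the bluer anthocyanins, had 0.946, 3.14 and 1.19 CPM at NT and 8.32, 8.69 and 7.7 CPM at HT (log2 change 2.23 ± 0.56 SE; edgeR adjusted p = 0.0068). Dihydroflavonol 4-reductase (PGSC0003DMT400009287), the step that commits dihydroflavonols to the anthocyanin branch, had 4.16, 9 and 2.09 CPM at NT and 25.4, 20.9 and 22 CPM at HT (log2 change 2.16 ± 0.56 SE; edgeR adjusted p = 0.0077). The HT libraries of these transcripts lay close together, while NT replicate 2 was the highest NT library of both. Without NT replicate 2 their log2 changes were 2.94 and 2.86.

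Anthocyanidin 3-O-glucosyltransferase (PGSC0003DMT400062562), which adds the first sugar, had 25.2, 14.4 and 11.5 CPM at NT and 60.5, 62.4 and 53.3 CPM at HT (log2 change 1.79 ± 0.42 SE; edgeR adjusted p = 0.0053). Anthocyanin 5-O-glucosyltransferase (PGSC0003DMT400011627), which adds a further sugar, had 1.93, 3.27 and 2.14 CPM at NT and 13.4, 15.1 and 13.3 CPM at HT (log2 change 2.51 ± 0.43 SE; edgeR adjusted p = 0.0021). In both the lowest HT library was above the highest NT library by more than the range within either group.

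Anthocyanidine rhamnosyl-transferase PGSC0003DMT400041594, which extends the sugar chain, had 5.99, 7.78 and 13.9 CPM at NT and 155, 92.3 and 142 CPM at HT. Its mean rose 14-fold (log2 change 3.81 ± 0.49 SE; edgeR adjusted p = 0.0011), to the highest HT level per kilobase of the set. A second transcript of that name, PGSC0003DMT400041753, rose from 1.09 to 3.98 CPM, and PGSC0003DMT400041595, with a higher HT mean, was not tested.

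With DESeq2 size factors the calls of chalcone synthase 2 (log2 change 0.48, adjusted p = 0.44), flavanone 3 beta-hydroxylase (0.46, 0.38), flavonoid 3',5'-hydroxylase (0.99, 0.13), dihydroflavonol 4-reductase (0.87, 0.19), leucoanthocyanidin dioxygenase PGSC0003DMT400007963 (0.80, 0.12), the 3-O-glucosyltransferase (0.47, 0.41), caffeoyl-CoA O-methyltransferase (1.03, 0.07) and cinnamyl alcohol dehydrogenase PGSC0003DMT400047475 (0.59, 0.2) were lost. Those of the 5-O-glucosyltransferase (1.26, 0.028) and the rhamnosyl-transferase (2.53, 0.0018) were kept under those factors. Adjusted over the authors' number of tests, dihydroflavonol 4-reductase (0.051), phenylalanine ammonia-lyase 1 (0.2), tyramine transferase PGSC0003DMT400038293 (0.052) and the sugar transferase UGT73E2 (PGSC0003DMT400045362, 0.052) were no longer called. The 12 transcripts of the plot of CPM at 8 weeks were chosen after their values were seen. None of the 9 flavonoid core members called lower is among them. These are leucoanthocyanidin dioxygenases, flavonoid 3-hydroxylases, flavonol synthase/flavanone 3-hydroxylases and chalcone reductase.

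**Figure D2:**
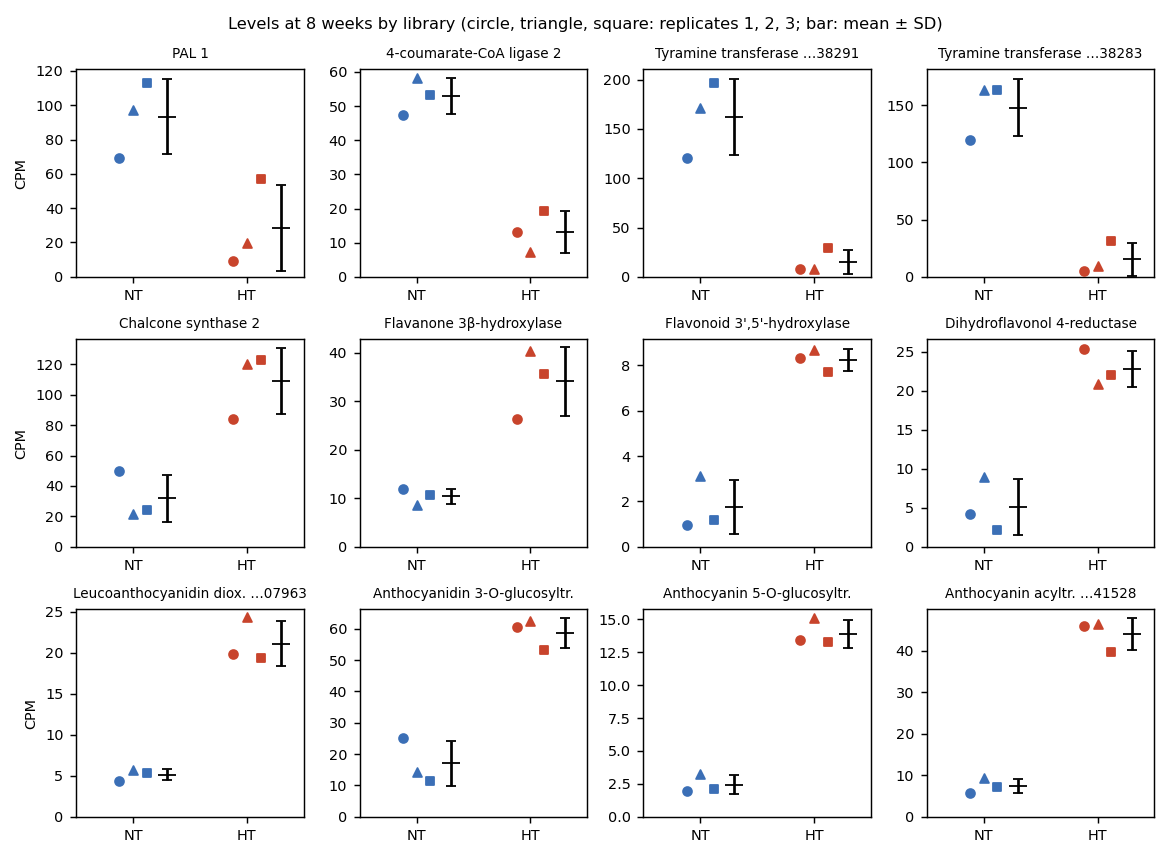
CPM at 8 weeks in each NT and HT library (circle, triangle and square for replicates 1, 2 and 3) with mean and SD bars, for 12 enzymes in pathway order, each panel with its own axis from 0. The first 4 panels, from phenylalanine ammonia-lyase 1 (69.5 to 113 CPM at NT, 9.06 to 56.9 at HT) to the tyramine transferases, are lower at HT, and the other 8, from chalcone synthase 2 (21.7 to 49.6 at NT, 84.2 to 123 at HT) onwards, are higher. The 9 flavonoid core members called lower are not shown.

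Anthocyanin acyltransferases, which attach acyl groups to the sugars of anthocyanins, were the most numerous product name. At 8 weeks 15 were listed, 13 were tested, and all 13 were higher at HT, with a median log2 change of 4.09 and a range from 2.58 to 5.68. All 13 were also called higher with DESeq2 size factors, and 12 of the 13 over the authors' number of tests. The 2 not tested (PGSC0003DMT400034258 and PGSC0003DMT400075209) had higher HT means. PGSC0003DMT400041528 was the most abundant, with 5.7, 9.21 and 7.19 CPM at NT and 45.9, 46.4 and 39.6 CPM at HT (log2 change 2.58 ± 0.39 SE; edgeR adjusted p = 0.0015). It was named for its level, after its values were seen.

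The acyltransferases differed in how evenly they rose over the HT libraries. PGSC0003DMT400036377 had 0.788, 0.341 and 0.739 CPM at NT and 9.6, 13.1 and 9.11 CPM at HT (log2 change 4.09), and PGSC0003DMT400036374 had 0.158, 0.0813 and 0.306 CPM at NT and 2.93, 3.71 and 3.47 CPM at HT (log2 change 4.20). In these the HT libraries were close to each other. By contrast, PGSC0003DMT400034254 had 0.0197, 0 and 0.0901 CPM at NT and 5.09, 0.29 and 0.519 CPM at HT (log2 change 5.68), and PGSC0003DMT400046325 had 0.0788, 0.13 and 0.0721 CPM at NT and 11.7, 0.74 and 1.43 CPM at HT (log2 change 5.58). HT replicate 1 stood far above the other HT libraries in both, and without it the log2 changes were 3.41 and 3.49.

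On the flavonol side the product names differed. All 8 transcripts named flavonol 4'-sulfotransferase, an enzyme known from Flaveria for adding sulfate to flavonols, were higher at 8 weeks (median log2 change 2.51, range 1.82 to 4.78), and 5 of them stayed called with DESeq2 size factors. PGSC0003DMT400072874 had 9.4, 7.17 and 9.37 CPM at NT and 37.6, 46.4 and 52.1 CPM at HT (log2 change 2.39 ± 0.37 SE; edgeR adjusted p = 0.0017). PGSC0003DMT400096856 had 9.52, 5.15 and 4.52 CPM at NT and 21.9, 26.7 and 27.3 CPM at HT (log2 change 1.98 ± 0.44 SE; edgeR adjusted p = 0.0043). PGSC0003DMT400054066 rose from 0.211 to 5.85 CPM (log2 change 4.78) and PGSC0003DMT400063308 from 0.214 to 2.57 CPM (log2 change 3.57).

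Of the 6 transcripts named flavonol synthase/flavanone 3-hydroxylase, dioxygenases counted above in the flavonoid core, 3 were higher and 3 lower at 8 weeks. PGSC0003DMT400001604 had 0.71, 0.374 and 0.469 CPM at NT and 48.2, 7.06 and 15 CPM at HT (log2 change 5.50, and 4.41 without HT replicate 1). PGSC0003DMT400001600 and PGSC0003DMT400001596 rose from 0.179 to 6.02 and from 0.0277 to 1.39 CPM, again with HT replicate 1 highest. Of the lower ones, PGSC0003DMT400018670 had 23.9, 22.1 and 31.4 CPM at NT and 1.21, 6.86 and 9.49 CPM at HT (log2 change -2.14 ± 0.68 SE; edgeR adjusted p = 0.016). PGSC0003DMT400008016 fell from a mean of 15.1 to 4.3 CPM and PGSC0003DMT400044918 from 1.31 to 0.139 CPM.

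All 3 transcripts named flavonoid 3-hydroxylase were lower at 8 weeks. PGSC0003DMT400036399 was the most abundant member by CPM at NT, with 265, 300 and 364 CPM, and had 5.64, 21.9 and 37.4 CPM at HT. This 14.3-fold lower mean was a log2 change of -3.84 ± 0.68 (SE; edgeR adjusted p = 0.0023), and -4.49 without HT replicate 3. PGSC0003DMT400036397 fell from 8.42 to 0.768 CPM (log2 change -3.45) and PGSC0003DMT400037425 from 5.55 to 0.591 CPM (-3.23, and -4.99 without HT replicate 3).

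Leucoanthocyanidin dioxygenase, which forms the coloured anthocyanidin, was listed with 6 transcripts, of which 3 were called higher and 2 lower at 8 weeks. The most abundant at NT, PGSC0003DMT400067586, had 36.8, 33 and 37.5 CPM at NT and 1.06, 5.15 and 4.02 CPM at HT (log2 change -3.39 ± 0.61 SE; edgeR adjusted p = 0.0023). The most abundant at HT, PGSC0003DMT400007963, had 4.41, 5.66 and 5.33 CPM at NT and 19.8, 24.3 and 19.3 CPM at HT (log2 change 2.04 ± 0.38 SE; edgeR adjusted p = 0.0027). The former had 23.9 CPM per kilobase at NT against 2.89 for the latter, and at HT the order turned (2.27 against 11.9). Which of them serves anthocyanin synthesis was not tested. PGSC0003DMT400070302 fell from 2.16 to 0.635 CPM (log2 change -1.76), a call lost without HT replicate 2 (adjusted p = 0.059) or NT replicate 3 (0.052). PGSC0003DMT400008001 and PGSC0003DMT400022287 rose from 0.393 to 2.79 and from 0.0174 to 0.314 CPM, and PGSC0003DMT400007990, not tested, had a lower HT mean.

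Among the remaining flavonoid names, chalcone reductase (PGSC0003DMT400079684) had 9.5, 24.1 and 0.937 CPM at NT and 1.03, 0.551 and 0.519 CPM at HT. Its groups overlapped, since NT replicate 3 lay below HT replicate 1, and the log2 change of -4.04 became -2.90 without NT replicate 2. Chalcone synthase J (PGSC0003DMT400043447) rose from 0.171 to 0.657 CPM (log2 change 1.93 ± 0.70 SE; edgeR adjusted p = 0.027). That call was lost without HT replicate 1 (0.067), HT replicate 3 (0.083), NT replicate 1 (0.09) or NT replicate 2 (0.076). A chalcone synthase G (PGSC0003DMT400022261) had no count at NT and 0.91, 0.029 and 0.146 CPM in the HT libraries, which is at least 19.1-fold higher with the floor of 3 counts over the group.

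Flavonoid sugar transferases moved in both directions. UGT94C2 (PGSC0003DMT400044446) had 99.4, 131 and 1.08 CPM at NT and 0.101, 0.276 and 0.195 CPM at HT (log2 change -8.64 ± 1.60 SE; edgeR adjusted p = 0.0026). NT replicate 3 was closer to the HT libraries than to the other NT libraries, so the mean of NT describes no library. UGT73E2 (PGSC0003DMT400045362) had 273, 187 and 139 CPM at NT and 37.6, 78.3 and 68 CPM at HT (log2 change -1.70 ± 0.45 SE; edgeR adjusted p = 0.0079). UGT73N1 (PGSC0003DMT400086118) had 0, 0 and 0.036 CPM at NT and 1.52, 1.2 and 0.941 CPM at HT, apart in all libraries but nearly without counts at NT.

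The isoflavone reductase homolog PGSC0003DMT400084270 had 0.0985, 0.228 and 0.144 CPM at NT and 13.1, 2.71 and 3.73 CPM at HT (log2 change 5.35, and 4.33 without HT replicate 1). 2-Hydroxyisoflavanone dehydratase (PGSC0003DMT400081450), an enzyme of isoflavone synthesis in legumes, was the member tested but not called at 8 weeks. It had 16.6, 14.7 and 24.3 CPM at NT and 0.101, 0.305 and 10.8 CPM at HT (log2 change -2.32 ± 1.37 SE; edgeR adjusted p = 0.13). Without HT replicate 3, which stood far above the other HT libraries, the log2 change was -6.49 (adjusted p = 0.00084).

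Besides the untested transcripts given above, 5 more members of low level were not tested at 8 weeks. Anthocyanidin reductase (PGSC0003DMT400013000), chalcone synthase G (PGSC0003DMT400022255), chalcone synthase J (PGSC0003DMT400022258), anthranilate N-hydroxycinnamoyl/benzoyltransferase (PGSC0003DMT400048721) and an isoflavone reductase homolog (PGSC0003DMT400084278) had higher HT means. In all, 9 of the 12 untested members had a higher and 3 a lower HT mean.

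At 3 weeks the listed members were scarce transcripts, the highest library value being 12.7 CPM. All 3 listed chalcone synthases were lower at HT. Of these only PGSC0003DMT400043447 was also listed at 8 weeks, where its call higher was lost without any of 4 single libraries as given above, and chalcone synthase 2 was not listed at 3 weeks. Chalcone synthase J had 1.81, 2.13 and 1.5 CPM at NT and 0.39, 0.301 and 0.258 CPM at HT in PGSC0003DMT400022254 (log2 change -2.51 ± 0.35 SE; edgeR adjusted p = 0.0012). PGSC0003DMT400043447 had 2.46, 2.87 and 2.96 CPM at NT and 0.941, 0.962 and 0.969 CPM at HT (log2 change -1.53 ± 0.28 SE; edgeR adjusted p = 0.0025). The HT libraries of the latter were nearly equal. PGSC0003DMT400004133, named chalcone synthase, had 1.41, 6.09 and 4.75 CPM at NT and 1.55, 1.11 and 1.01 CPM at HT. Its groups overlapped, and the call (log2 change -1.74, adjusted p = 0.015) was lost without HT replicate 2 (0.053), HT replicate 3 (0.055) or NT replicate 2 (0.052).

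Flavonoid 3-hydroxylase PGSC0003DMT400004816 had 5.42, 7.94 and 10.5 CPM at NT and 1.99, 1.33 and 2.18 CPM at HT at 3 weeks (log2 change -2.11 ± 0.36 SE; edgeR adjusted p = 0.0019). The other one listed, PGSC0003DMT400036397, rose from 0.252 to 1.2 CPM (2.24 ± 0.43 SE). Of the 3 sulfotransferases PGSC0003DMT400076837 fell from 0.665 to 0.173 CPM, while PGSC0003DMT400038714 rose from 0.0922 to 0.447 CPM and PGSC0003DMT400086700 from 0.0793 to 0.307 CPM. The call of the last was lost without HT replicate 2 (adjusted p = 0.059), HT replicate 3 (0.059) or NT replicate 2 (0.051).

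All 3 leucoanthocyanidin dioxygenases listed at 3 weeks were higher. PGSC0003DMT400007992 had 2.6, 1.97 and 1.42 CPM at NT and 12.7, 5.51 and 9.48 CPM at HT, the highest member at HT per kilobase (log2 change 2.21 ± 0.41 SE; edgeR adjusted p = 0.0024). The 4 flavonol synthases were higher too, by log2 changes from 1.80 to 2.43. Among these, PGSC0003DMT400027666 and PGSC0003DMT400067044 (adjusted p = 0.028 and 0.031) lost the call when single libraries were left out. Without HT replicate 1, for example, the adjusted p-values were 0.075 and 0.079.

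Acyltransferases were divided at 3 weeks, with 4 higher and 2 lower. With DESeq2 size factors 2 were called higher and 2 lower, and over the authors' number of tests 2 higher and 0 lower. PGSC0003DMT400036377 had 1.35, 1.01 and 0.939 CPM at NT and 7.17, 6.43 and 7.24 CPM at HT (log2 change 2.66 ± 0.29 SE; edgeR adjusted p = 0.00058). PGSC0003DMT400034254 had 4.35, 1.23 and 1.2 CPM at NT and 0.39, 0.603 and 0.621 CPM at HT, and PGSC0003DMT400034258 had 4.69, 1.31 and 1.86 CPM at NT and 0.578, 0.603 and 0.939 CPM at HT. NT replicate 1 was the highest library of both, and without it their log2 changes of -2.07 and -1.89 became -1.17 and -1.16. Caffeic acid O-methyltransferase II (PGSC0003DMT400034726) rose from 0.119 to 0.469 CPM and UGT73N1 (PGSC0003DMT400069229) from 0.147 to 0.57 CPM.

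DESeq2 size factors, which lowered the log2 changes, weighed more on the 3-week rises than on the falls. With DESeq2 size factors the 4 flavonol synthases kept 1 call and the 3 leucoanthocyanidin dioxygenases kept none, while the 3 chalcone synthases stayed called lower.

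The HT effect was compared between ages in the 13 members listed at both. The edgeR interaction called 9 of them, 3 with a higher and 6 with a lower effect at 8 weeks, beside 33.7% of the 576 shared transcripts tested (15.8% higher and 17.9% lower). In all 9 the order of the HT and NT means changed between the ages. Listing at each age required a large change in either direction. A member listed with opposite changes therefore had to differ widely between the ages. The 9 calls were thus in part set by the listing and are no independent evidence of a difference between ages. For these comparisons CPM values are over plain library totals.

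The 6 with the higher mean at HT at 3 weeks and at NT at 8 weeks are the flavonol synthases PGSC0003DMT400008016 and PGSC0003DMT400018670, flavonoid 3-hydroxylase PGSC0003DMT400036397, the leucoanthocyanidin dioxygenases PGSC0003DMT400067586 and PGSC0003DMT400070302, and 2-hydroxyisoflavanone dehydratase PGSC0003DMT400081450. What moved most in them was the NT level. For PGSC0003DMT400067586 it went from 0.432 ± 0.165 CPM at 3 weeks to 34.6 ± 2.32 CPM at 8 weeks (SD, n = 3), while the HT level was 2.68 ± 0.434 and 3.53 ± 2.19 CPM. For PGSC0003DMT400018670 the NT means were 0.23 and 24.9 CPM and the HT means 1.37 and 6.06 CPM. The NT means of all 6 rose with age by edgeR's test, between 4.96-fold (PGSC0003DMT400070302) and 107-fold (PGSC0003DMT400018670).

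The other 3 had the reverse order. They are the acyltransferases PGSC0003DMT400034254 and PGSC0003DMT400034258, the latter without a test of its own at 8 weeks, and chalcone synthase J PGSC0003DMT400043447. Their NT means fell with age, 53.1-fold, 91.8-fold and 14.4-fold. In chalcone synthase J the NT mean went from 2.4 ± 0.232 to 0.165 ± 0.0927 CPM and the HT mean from 1.1 ± 0.0167 to 0.68 ± 0.304 CPM (SD, n = 3). The edgeR age test at NT called 9 of 13, 6 higher and 3 lower, beside 46.2% of the shared transcripts (31.2% higher and 14.9% lower). With DESeq2 size factors 5 were called higher and 7 lower, beside 22% and 27.6% of the shared transcripts (49.6% in all).

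At HT the age test called 0 of the 13 members, beside 7.47% of the shared transcripts (5.38% higher and 2.08% lower), and 2 had an unadjusted p under 0.05. The nearest was PGSC0003DMT400018670, with a log2 change of 2.14 ± 0.62 (SE; edgeR adjusted p = 0.052). Spreads at HT were wide at 8 weeks, and a missed threshold does not show equal levels. The labels give a single period in weeks for each group, so age and time at HT cannot be told apart here or in the interaction. On totals carrying the HT to NT shift 1 member was called higher, and leaving out single libraries gave 0 or 1. With DESeq2 size factors the count was again 0, beside 5.89% of the shared transcripts (4.33% higher and 1.56% lower).

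The 4 other shared members, acyltransferases PGSC0003DMT400036374, PGSC0003DMT400036377, PGSC0003DMT400036383 and PGSC0003DMT400046322, were higher at HT at both ages. Their log2 changes were 2.55, 2.66, 1.76 and 2.47 at 3 weeks and 4.20, 4.09, 3.33 and 3.78 at 8 weeks. The 3-week calls of PGSC0003DMT400036383 and PGSC0003DMT400046322 were lost with DESeq2 size factors and with the authors' number of tests, and without NT replicate 3 the 3-week log2 change of PGSC0003DMT400046322 was 3.16. Their interactions were not called (edgeR adjusted p = 0.085, 0.077, 0.15 and 0.27). With TMM all 4 interactions passed (0.011, 0.0097, 0.019 and 0.029), with DESeq2 size factors the first 3 did (0.022, 0.022 and 0.031), and with the DESeq2 test the first 2 (0.025 and 0.018), so whether these interactions were called depended on both the scaling and the test. Over the shared transcripts DESeq2 size factors called 38.3% (21.7% higher and 16.6% lower).

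**Figure D3:**
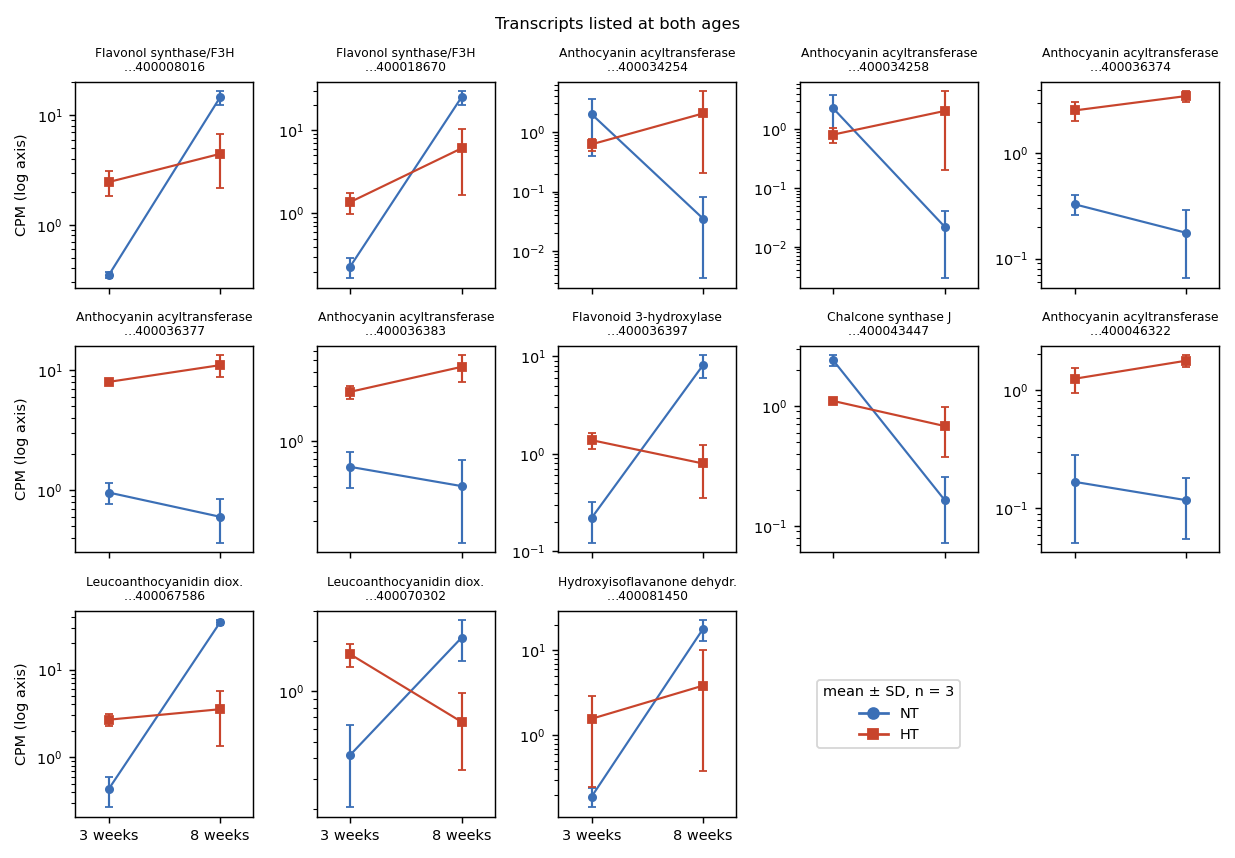
Mean CPM over plain library totals (log axis) with SD bars, n = 3, at 3 and 8 weeks for NT (circles) and HT (squares) in the 13 members listed at both ages. Lower bars are shortened where the SD comes near or above the mean. In 9 panels the NT and HT lines cross, and in the panels of acyltransferases PGSC0003DMT400036374, PGSC0003DMT400036377, PGSC0003DMT400036383 and PGSC0003DMT400046322 HT stays above NT.

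HT libraries at 8 weeks were not alike. HT replicate 1 was the highest HT library in 25 of the 44 members called higher (56.8%), against 68.5% of all transcripts called higher. It was more than 4-fold above both other HT libraries in 3 of them (6.82%), against 9.94% of all. The ratio of HT replicate 1 to the mean of the other HT libraries ran from 0.628 for acyltransferase PGSC0003DMT400036383 to 12.6 for acyltransferase PGSC0003DMT400034254. It was 0.692 for chalcone synthase 2, 0.696 for flavanone 3 beta-hydroxylase, 1.18 for dihydroflavonol 4-reductase, 1.02 for flavonoid 3',5'-hydroxylase and 1.05 for the 3-O-glucosyltransferase. In these 5 enzymes HT replicate 1 lay near or below the other HT libraries. Among the 22 lower members HT replicate 3 was the highest HT library in 14 (63.6%), against 63.9% of all lower transcripts. NT replicate 3 lay more than 4-fold below both other NT libraries in 6 of the 79 members (7.59%), against 4.94% of all listed transcripts.

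**Figure D4:**
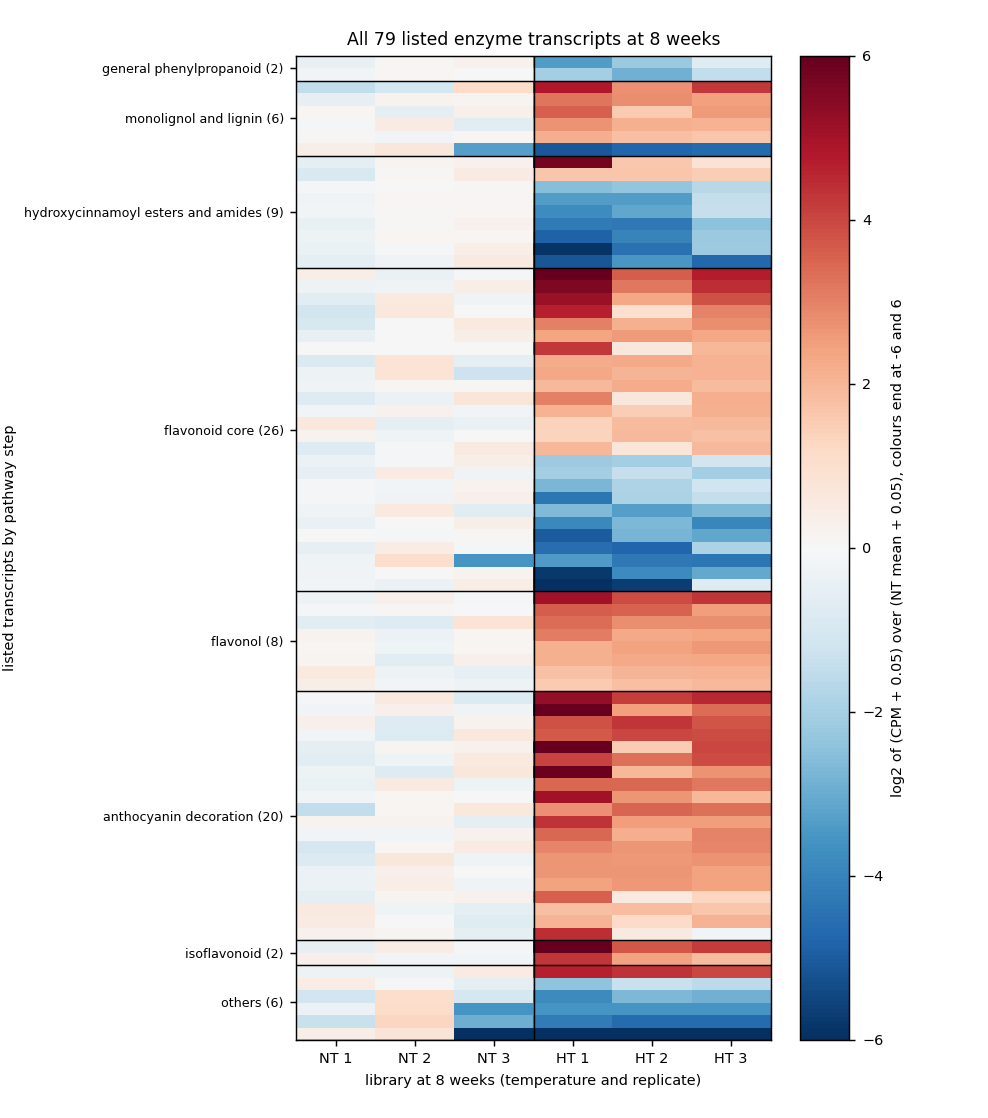
Each of the 79 members listed at 8 weeks (one line each, grouped by pathway step with the number of members in brackets) in the 6 libraries, coloured by log2 of CPM plus 0.05 over the NT mean plus 0.05, with colours ending at -6 and 6. HT replicate 1 shows the deepest colours in several acyltransferases, while most of the lower hydroxycinnamoyl ester and amide lines are palest in HT replicate 3 among the HT libraries.

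Marker lists moved with temperature in the same libraries. Over all listed transcripts tested, 59.3% were called higher and 38% lower at 8 weeks, and 60.3% and 37.2% at 3 weeks. At 8 weeks the 27 listed leaf markers (chlorophyll-binding proteins and Rubisco) were all called higher, with summed levels of 7715 to 8614 CPM at NT and 55076, 25215 and 28289 CPM in HT replicates 1, 2 and 3. Of 70 markers of dividing cells (cyclins, kinesins and histones) 67 were tested and all 67 were higher, with sums of 129 to 176 CPM at NT and 1322, 445 and 428 CPM at HT. Of 15 storage tissue markers 14 were tested, 11 were higher and 3 lower, with sums of 69.3 to 90.6 CPM at NT and 142 to 287 CPM at HT. At 3 weeks the leaf sum was 6521 to 7411 CPM at NT and 2185 to 2579 CPM at HT (1 of 6 higher and 5 lower), and the dividing-cell sum was 80 to 113 CPM at NT and 30 to 39.5 CPM at HT (2 of 6 higher and 4 lower). These lists hold listed transcripts only, none of the sums was 0, and their part in the results on the enzymes was not tested.

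Other genes of the pathway, chosen by product name, were mixed at 8 weeks, as were all listed transcripts tested (59.3% higher and 38% lower). Of 6 transcripts found by words for the shikimate pathway and its products chorismate, prephenate and arogenate, 3 were higher and 2 lower. They include isochorismate synthase (PGSC0003DMT400083065, higher) and 2 prephenate dehydrogenases (1 lower and 1 not called), which lead to products other than phenylalanine. The first enzyme of the shikimate pathway had opposite copies, chloroplastic phospho-2-dehydro-3-deoxyheptonate aldolase 2 (PGSC0003DMT400041818) rising from 257 ± 44.8 to 1692 ± 83.2 CPM and aldolase 1 (PGSC0003DMT400079161) falling from 363 ± 80.2 to 91.7 ± 40 CPM (SD, n = 3). Laccases, dirigents and diphenol oxidases, which act in joining lignin units, had 6 higher and 6 lower of 12 tested. Sinapyl alcohol dehydrogenase 2 (PGSC0003DMT400041566) rose from 2 to 43.7 CPM, and feruloyl transferase (PGSC0003DMT400081182) fell from 4.26 to 0.206 CPM.

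Among MYB factors, the family that holds the known activators and repressors of flavonoid genes, 17 were higher and 12 lower of 31 tested at 8 weeks, and 6 were higher and 2 lower of 8 at 3 weeks. The files do not say which of them act on these enzymes. Transcription factor HY5 (PGSC0003DMT400090249), a light-signal factor known in Arabidopsis to act on flavonoid genes, was scarce and higher at both ages, at 0.139 and 0.674 CPM at 3 weeks and 0.349 and 1.17 CPM at 8 weeks for NT and HT. In the list of multidrug pumps, MATE transporters and glutathione S-transferases, families that include carriers of flavonoids to the vacuole, 9 were higher and 16 lower of 26 tested at 8 weeks. At 3 weeks 1 was higher and 1 lower of 3. Over all listed transcripts tested, 59.3% were called higher and 38% lower at 8 weeks, and 60.3% and 37.2% at 3 weeks. The counts of these lists are therefore not read as results about them.

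Set against transcript length, the order of the members at 8 weeks turned over between temperatures. Every member was listed for a large change between HT and NT, so a change of order was in part set by the listing. At NT the highest mean levels were 204 CPM per kilobase for UGT94C2, 186 for flavonoid 3-hydroxylase PGSC0003DMT400036399, 171 and 159 for tyramine transferases PGSC0003DMT400038291 and PGSC0003DMT400038283, 106 for UGT73E2, 90.1 for tyramine transferase PGSC0003DMT400038293 and 61.7 for phenylalanine ammonia-lyase 1. The SDs were 179, 29.9, 40.7, 26.7, 36.1, 26.8 and 14.6, so the first 4 do not differ beyond their spread. At HT the highest were 82.9 ± 21.1 CPM per kilobase for the rhamnosyl-transferase PGSC0003DMT400041594, 75.7 ± 15.1 for chalcone synthase 2 and 59.1 ± 11.3 for cinnamyl alcohol dehydrogenase PGSC0003DMT400047475 (SD, n = 3), which again overlap as neighbours. Next came 39.2 for sulfotransferase PGSC0003DMT400072874, 34.6 for caffeoyl-CoA O-methyltransferase and 34.5 for the 3-O-glucosyltransferase. UGT73E2 followed with 32.6, and was thus among the highest at both temperatures.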

How the data were processed

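Every test used the raw counts of each transcript and library that the authors deposited. The deposited group means are plain means of those counts (a signal), and the column of the larger group mean holds RPKM, per the file headers. Log2 fold changes, signed fold changes (a score) and p-values were deposited by the authors with no tool named. A further table that repeats shared transcripts was not used here. Aligner, counter and build: not given in the sources used here. Of the listed identifiers 0 matched the reference gene table, so names are those of the files, with no positions and no sequences.

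Library totals were solved from RPKM, counts and lengths, since listed counts make up only 1.76% to 23.15% of a library. The authors' log2 fold changes departed from counts over totals by -0.402 at 3 weeks and -0.099 at 8 weeks, and this shift was divided between HT and NT totals. Tests between ages used plain totals. edgeR 4.0.16 in R 4.3.3 ran the quasi-likelihood F test after filterByExpr (minimum count 10), with Benjamini-Hochberg adjustment over all listed transcripts tested. Standard errors were taken as the size of the log2 change divided by the square root of F. The scripts were tested on simulated data. Alternatives were DESeq2 1.42.0, its size factors, TMM, plain totals, no filter, a replicate block, the authors' number of tests (33777 and 34088), an adjusted p under 0.01, and leaving out each library. Counting error limits the scarce transcripts most.

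Named were all members listed at both ages, and per pathway step and age up to 2 called members with the highest mean and up to 2 with the largest change. Others were named after their values were seen. The members and lists were chosen with earlier results of these data known.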

Additional observations from a re-analysis of the deposited data

Results flagged for a closer look

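The HT effect of 9 members differed between 8 and 3 weeks by the edgeR interaction term, given as the difference of log2 changes, 8 weeks minus 3 weeks. In each the group means also changed order between the ages. Listing at both ages required a log2 fold change of 1.5 or more in either direction, so this was in part set by the listing. It was 7.75 for acyltransferase PGSC0003DMT400034254, 8.16 for acyltransferase PGSC0003DMT400034258 and 3.45 for chalcone synthase J PGSC0003DMT400043447. It was -4.24 and -4.30 for flavonol synthases PGSC0003DMT400008016 and PGSC0003DMT400018670, and -5.69 for flavonoid 3-hydroxylase PGSC0003DMT400036397. For leucoanthocyanidin dioxygenases PGSC0003DMT400067586 and PGSC0003DMT400070302 it was -5.61 and -3.34. For 2-hydroxyisoflavanone dehydratase PGSC0003DMT400081450 it was -4.94 (adjusted p = 0.049), a call lost without filter (0.051), with TMM (0.071), and without most single libraries, up to an adjusted p of 0.14 without HT replicate 2 at 3 weeks. The causes were not tested.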

How the results depend on the processing

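Over 95 values of single members and 1352 comparisons with another setting, 1265 kept direction and side of the threshold, 63 lost a call, 19 gained one and 5 changed sign. Members called higher at 3 weeks numbered 3 with DESeq2 size factors, 3 with the authors' number of tests and 11 at an adjusted p under 0.01, in place of 17. Those called lower numbered 1 and 4 under the last pair of settings, in place of 7. At 8 weeks 13 were called lower with the authors' number of tests, in place of 22. Interactions called higher numbered 7 with TMM, 5 with the DESeq2 test and 6 with DESeq2 size factors, in place of 3. With age at NT 7 were called lower with DESeq2 size factors, in place of 3, and with age at HT 1 was called higher on totals with the shift, in place of 0.

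Leaving out single libraries gave 14 to 16 higher and 6 to 7 lower at 3 weeks, 43 to 50 higher and 21 to 25 lower at 8 weeks, 3 to 4 and 5 to 6 for the interaction, 6 and 3 to 4 for age at NT, and 0 to 1 and 0 for age at HT. The sign changed for age at NT of PGSC0003DMT400046322 (range -1.01 to 0.19, highest without NT replicate 3 of 3 weeks). It changed for age at HT of PGSC0003DMT400034254 (-0.56 to 2.23) and PGSC0003DMT400034258 (-0.30 to 1.88), both lowest without HT replicate 1 of 8 weeks. It also changed there for PGSC0003DMT400067586 (-0.03 to 0.83, lowest without HT replicate 2) and PGSC0003DMT400081450 (-2.88 to 2.24, lowest without HT replicate 3). None of these 5 values was called with all libraries. The cause was not tested.

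Deviations of same-numbered libraries correlated weakly, at 0.19, 0.16 and -0.07 at 3 weeks and at -0.07, 0.04 and 0.01 at 8 weeks. With so few libraries this does not settle whether replicate numbers pair them. With a replicate block 17 members were called higher and 7 lower at 3 weeks, 43 and 23 at 8 weeks, 3 and 6 for the interaction, 6 and 3 for age at NT, and 0 and 0 for age at HT. Depth limits the members near 0 counts, 12 of which were not tested at 8 weeks.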
